A study of Mus musculus with 40 samples.

Results

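Interferon beta and the core of type I interferon signalling were followed as 9 genes through RNA-seq of mouse macrophages differentiated from bone marrow with M-CSF (BMDMs). The genes were the ligand Ifnb1, the kinase Tbk1, the transcription factors Irf3, Irf7 and Irf1, the receptor chains Ifnar1 and Ifnar2, and the signal carriers Stat2 and Irf9. These are 9 of the 43430 rows of the count table, each found by its Ensembl identifier, and all 9 passed the filter on low counts that left 11853 genes for testing. The list was chosen from gene symbols, with no threshold on a measured value. It was proposed, however, with earlier results of these same libraries known, and which of those values led to the choice is not recorded. The values below therefore describe the genes and are not independent support for a pattern.

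BMDMs came from 5 WT mice and 5 NDI1 mice, and the labels give the strain of all as C57/Bl6. Both genotypes carried Vav-iCre, which is active in blood-forming cells. NDI1 mice also carried a Rosa26 lox-stop-lox-NDI1 allele, so that their haematopoietic cells express NDI1, the single-protein NADH dehydrogenase of yeast, which can stand in for complex I and which piericidin A does not inhibit. Piericidin A inhibits complex I, and LPS is a bacterial cell wall component that activates Toll-like receptor 4 on macrophages. Young adult male and female littermates were used. BMDMs of each mouse were left untreated, given 500 nM piericidin A, given 100 ng/ml LPS for 4 h, or given piericidin A for 30 min and then LPS. This makes 8 groups of 5 libraries, 40 in all, in which each mouse gives 1 library to each treatment. NDI1 has no row in the mouse count table, so the transgene itself was not analysed here.

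In the textbook pathway, Toll-like receptor 4 signals through the adaptor TRIF to TBK1, which phosphorylates IRF3, and IRF3 together with NF-kappaB switches on Ifnb1. Secreted interferon beta binds the receptor formed by IFNAR1 and IFNAR2, and the receptor activates a complex that contains STAT2 and IRF9 and binds interferon-stimulated response elements (ISREs). Irf7 is a target of this complex and amplifies interferon production, whereas Irf1 is induced through NF-kappaB and through interferon signals that act at GAS elements. In macrophages, Ifnb1 is an early, short-lived transcript of the LPS response.

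The promoters of 3 members are printed as examples that hold the elements named above. That of Ifnar2, which has a GAS match in the same range, is not printed. Each run is 200 bases of RefSeq sequence (GRCm38.p6), 5′ to 3′ on the strand of the gene, from base 250 to base 51 before the annotated start. Capitals mark motif matches.
Ifnb1 (chr4:88522845-88523044, minus strand): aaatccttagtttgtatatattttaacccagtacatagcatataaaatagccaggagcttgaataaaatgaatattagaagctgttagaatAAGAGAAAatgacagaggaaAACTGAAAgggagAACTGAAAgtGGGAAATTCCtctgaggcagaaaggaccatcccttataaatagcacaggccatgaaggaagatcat
Irf1 (chr11:53769764-53769963, plus strand): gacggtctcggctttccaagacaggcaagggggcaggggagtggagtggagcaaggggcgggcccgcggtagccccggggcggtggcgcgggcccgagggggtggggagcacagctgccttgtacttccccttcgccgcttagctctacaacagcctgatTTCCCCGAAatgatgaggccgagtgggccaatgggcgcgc
Stat2 (chr10:128270248-128270447, plus strand): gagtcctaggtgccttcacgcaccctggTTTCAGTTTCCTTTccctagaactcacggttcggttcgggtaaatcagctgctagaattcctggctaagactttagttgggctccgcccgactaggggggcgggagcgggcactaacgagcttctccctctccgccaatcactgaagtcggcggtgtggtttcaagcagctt

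The Ifnb1 run holds 1 match to the kappaB motif, which starts 116 bases before the start, and 3 matches to the shorter IRF core, which start 159, 139 and 126 bases before it. The Irf1 run holds 1 GAS match, 90 bases before the start. The Stat2 run holds 1 ISRE core on the reverse strand, 222 bases before the start, and 2 IRF cores that overlap each other, the first of which lies within that match. The motifs were searched on both strands from 250 bases before to 50 bases after each start. The letters were GAAANNGAAA for the ISRE core, TTCNNNGAA for GAS, GGGNNNTTCC for kappaB and AANNGAAA for the IRF core, and the ISRE core contains the IRF core. Of 32851 promoters, 3.44% held the ISRE core, 8.3% GAS, 5.56% kappaB and 23.9% the IRF core. The members have 11 promoter windows, of which 1, 3, 1 and 2 held these motifs. The other 2 GAS matches were in Ifnar1, 5 bases before the start, and in Ifnar2, 214 bases before it. The remaining windows, among them that of Irf7, held none of these motifs. The IRF core was added after the Ifnb1 sequence had been seen. A match describes letters in a window and does not show binding.

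Library totals ranged from 6950748 to 13552070 counts (median 10361773.5). Levels are given as CPM, counts scaled to a common library size, here after TMM scaling, which equalizes libraries on the bulk of their genes. The TMM factors lay between 1.13 and 1.37 without LPS and between 0.696 and 0.899 with LPS. Scaled by plain library totals instead, the median LPS effect over all genes shifted from a log2 fold change of −0.01 to −0.79 in WT, and the share of calls that were higher from 50.4% to 18%. The same change moved the median effect of piericidin A by much less, from −0.02 to 0.05 under LPS and from 0.00 to −0.13 without LPS in WT. All 6 macrophage markers (Adgre1, Csf1r, Cd68, Itgam, Mertk and Fcgr1) were detected in every group, and their summed level was between 5304 and 9186 CPM. The other lists were summed to at most 24.7 CPM for plasmacytoid dendritic cells, 19.0 for conventional dendritic cells, 12.8 for B cells, 1.44 for T and NK cells, with 2 of 4 markers (Ncr1 and Gzma) at 0 in every library, and 109 for fibroblasts. Neutrophil markers ranged more widely, from 9.66 to 2082 CPM, and were highest in WT mouse 496 with LPS and piericidin A. The highest sums given above for plasmacytoid and conventional dendritic cells, B cells and fibroblasts came from that same library.

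Ifnb1 is a gene of 1 exon and 750 bases (mm10, chr4:88522025-88522774, minus strand, ENSMUSG00000048806) that shares no exon base with another annotated gene. It had no count in any of the 10 untreated libraries, over which 3 counts would be 0.042 CPM in WT and 0.0463 CPM in NDI1. With LPS it was detected in every mouse. In WT the levels were 3.13, 2.14, 0.558, 2.33 and 1.06 CPM, and in NDI1 they were 0.439, 0.904, 1.62, 1.87 and 2.81 CPM. The 2 genotypes overlap, with means of 1.84 ± 1.03 CPM (SD, n = 5) in WT and 1.53 ± 0.916 CPM in NDI1. Summed over the mice, LPS gave 72 counts in WT and 62 in NDI1. Against the floor of 3 counts over a group, Ifnb1 was at least 43.3-fold higher with LPS than without it in WT, and at least 32.4-fold higher in NDI1 (19.6-fold without mouse 521). The adjusted p was 7.8e-05 in WT and 0.000243 in NDI1 (edgeR quasi-likelihood test, Benjamini-Hochberg over all tested genes). When the fit held the LPS and untreated libraries of 1 genotype alone, Ifnb1 was below the filter on low counts in both genotypes and was not tested.

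Piericidin A without LPS left Ifnb1 far below its level with LPS. In WT the counts were 1, 2, 1, 6 and 2, which is 0.0757, 0.139, 0.0702, 0.525 and 0.187 CPM, whereas all 5 NDI1 libraries had 0. The 12 WT counts put the pooled level at 0.188 CPM with an exact Poisson interval of 0.097 to 0.328, which covers counting error only, and at least 4.47-fold above untreated WT. Mouse 496 gave 6 of the 12 counts, and without it the bound was 2.24-fold. With piericidin A, mouse 496 also had the highest WT marker sum for neutrophils and for every other list but that of T and NK cells. The sums were 16.3 CPM for plasmacytoid dendritic cells, 9.89 for conventional dendritic cells, 5.95 for B cells and 63.2 for fibroblasts. The part of these cells in the Ifnb1 counts was not tested. Every WT mouse had a count that its untreated culture lacked. Still, the edgeR test gave an adjusted p of 0.182 against untreated WT and of 0.24 against NDI1 with piericidin A, while DESeq2 called both.

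Piericidin A and LPS together gave the highest Ifnb1 of the series in WT. The WT mice had 53.2, 8.96, 14.1, 89.0 and 118 CPM, from 397, 70, 88, 704 and 884 counts. The NDI1 mice had 1.44, 1.05, 0.775, 1.49 and 3.14 CPM, from 13, 9, 8, 10 and 31 counts. Every WT library was above every NDI1 library and above every WT library with LPS alone. The NDI1 libraries with both agents overlapped those with LPS alone. In WT the log2 fold change of both agents against LPS was 4.94 ± 0.61 (SE), a 30.7-fold difference with a 95% interval of 13.4 to 70.4 (adjusted p = 6.18e-06, edgeR). In NDI1 it was 0.07 ± 0.69 (adjusted p = 1), with an interval of 0.412 to 2.68-fold.

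**Figure D1:**
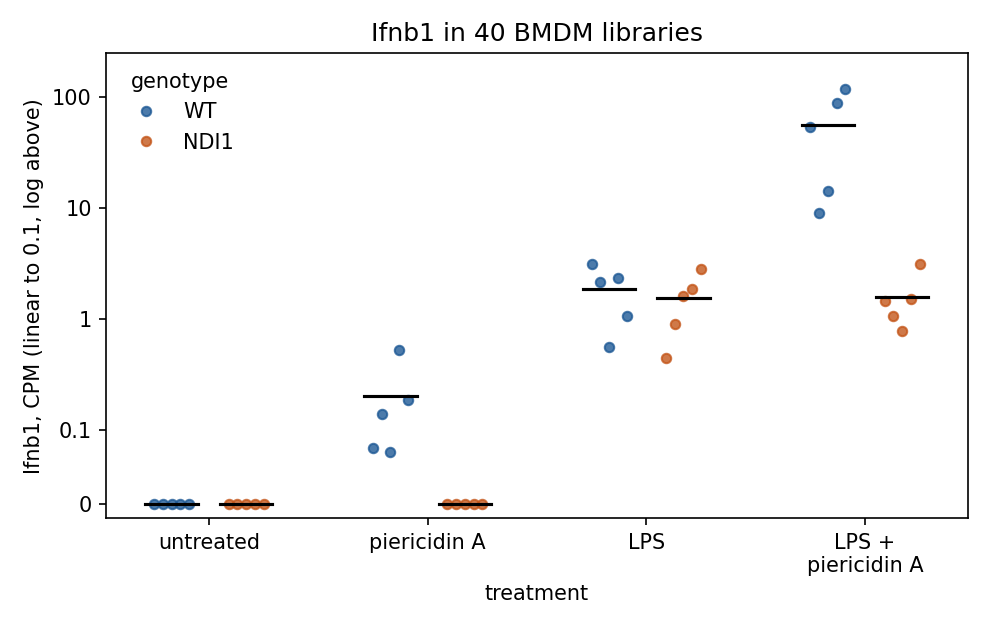
Ifnb1 in each of the 40 libraries (points) by treatment and genotype, in CPM on an axis that is linear to 0.1 and logarithmic above, with group means as bars. The 5 WT libraries with both agents lie between 8.96 and 118 CPM, above all others, and the untreated libraries and NDI1 libraries with piericidin A lie at 0.

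The size of the Ifnb1 response varied between WT mice. Within mice, the CPM ratio of both agents to LPS was 17.0, 4.19, 25.3, 38.2 and 111 in WT mice 449, 452, 453, 496 and 520. In NDI1 mice 447, 460, 461, 503 and 521 it was 3.28, 1.17, 0.478, 0.797 and 1.12. On the log2 CPM scale with a prior count of 2, the mean difference was 4.39 ± 1.68 (SD, n = 5 mice) in WT and 0.10 ± 0.84 in NDI1. All 5 WT mice exceeded all 5 NDI1 mice, and the exact two-sided permutation test over 252 assignments gave p = 0.00794, the smallest it can give. The same difference in the edgeR fit was −4.87 ± 0.92 for NDI1 minus WT (adjusted p = 0.0079). Without WT mouse 520 it was −4.29, with an adjusted p of 0.0532. Across its 16 alternatives, the value stayed between −5.21 and −4.29 and the adjusted p between 0.000358 and 0.0532.

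Neutrophil marker sums moved with piericidin A. In WT mice 449, 452, 453, 496 and 520 they were 32.3, 83.7, 37.7, 754 and 50.4 CPM with LPS and 69.4, 123, 69.7, 2082 and 112 CPM with both agents. They were higher with both agents in 5 of 5 WT mice, by 1.47 to 2.76-fold, and in 5 of 5 NDI1 mice, by 1.09 to 1.47-fold. Fibroblast sums were higher in 4 WT mice (0.973 to 5.33-fold over the 5) and 3 NDI1 mice (0.609 to 1.37). Plasmacytoid dendritic cell sums were higher in 4 WT mice (0.797 to 1.95) and 2 NDI1 mice (0.692 to 1.24). Conventional dendritic and B cell sums were higher in 3 mice of each genotype. Macrophage sums were higher in 2 WT mice and 1 NDI1 mouse, T and NK cell sums in 1 and 4. In the edgeR test without the block, 0 of the 23 tested markers of all cell types were called for piericidin A under LPS in WT, and the neutrophil genes Camp, Ltf, Ngp and S100a8 were at 1.36, 1.52, 1.40 and 1.14 on the log2 scale. With the mouse as a block, 8 of the 23 were called in WT, where 34.5% of all genes were, among them all 4 tested neutrophil markers, Ltf at 1.16 (adjusted p = 2.74e-05) and Ngp at 1.17 (adjusted p = 7.81e-06) with the smallest p. The other 4 were Cd68 (0.32) and the fibroblast gene Col1a2 (0.94), higher, and the macrophage genes Adgre1 (−0.25) and Fcgr1 (−0.43), lower. In NDI1 0 of 23 were called with the block, and the difference between genotypes, called for 9.51% of genes with the block, was called for Ngp (−0.93, adjusted p = 0.0183) and Cd68 (−0.29, adjusted p = 0.0422). The part of these cells in the Ifnb1 result was not tested. Without mouse 496 the Ifnb1 effect in WT was 4.82 (adjusted p = 0.000135), and without mouse 520 it was 4.36 (adjusted p = 0.000429). In bulk RNA, more of a transcript per cell and more cells that express it cannot be told apart.

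Before the effect of piericidin A on the other members, their LPS response sets the scale. With LPS, 8 of the 9 members rose in WT and the same 8 in NDI1, against 31.5% of all tested genes called higher in WT and 31.5% in NDI1. Ifnb1 is among the 8 in this fit over all groups, but it was below the filter when a genotype's LPS and untreated libraries were fitted alone, where the other 7 were called in each genotype. Of the 8 members other than Ifnb1, Irf7, the amplifying factor, had the largest fitted log2 fold change, 3.30 ± 0.38 in WT and 3.72 ± 0.39 in NDI1. Irf1 (3.06 ± 0.28) and Stat2 (2.97 ± 0.20) followed in WT, then Tbk1 (1.60 ± 0.13), Ifnar1 (1.54 ± 0.18), Ifnar2 (1.24 ± 0.17) and Irf9 (1.00 ± 0.10). The LPS libraries of these 7 genes did not overlap the untreated ones in either genotype, as in 49.8% of all tested genes in WT and 47.9% in NDI1. Irf3 was 26.4 ± 1.33 CPM (SD, n = 5) untreated and 22.5 ± 2.01 CPM with LPS in WT, a log2 fold change of −0.23 ± 0.13 (adjusted p = 0.126), and it was called lower at −0.32 (adjusted p = 0.00739) when these groups were fitted alone. Scaled by library totals, Irf3 was called lower at −1.01 (adjusted p = 6.77e-07), beside the median of −0.79 for all genes on that scale, and the other 7 stayed called with smaller effects, down to 0.44 for Ifnar2 (adjusted p = 0.00435) and 0.21 for Irf9 (adjusted p = 0.0422). With LPS, 5 of the 23 tested cell type markers were called in WT. The conventional dendritic cell gene Xcr1 (4.03), the plasmacytoid dendritic cell gene Ccr9 (2.95) and the macrophage gene Fcgr1 (2.45) were higher and Csf1r (−0.46) lower, each also called in that direction in NDI1 and by library totals in both genotypes. No other tested dendritic cell marker was called in either genotype. In WT these were Flt3 (−0.04), Zbtb46 (0.58), Siglech (1.37), Pacsin1 (1.10) and Cox6a2 (0.11), and in NDI1 Flt3 was at −0.94. Adgre1 was called higher in WT at 0.64 but was at −0.15 by library totals (adjusted p = 0.26). By library totals 6 markers were called in WT, 3 higher and 3 lower, and Cd68 (−0.62) and Itgam (−0.44) were among the lower. In NDI1 they were 7, 3 higher and 4 lower, again with Cd68 and Itgam lower, and with Mertk. With TMM factors, NDI1 had 5 markers called higher and 1 lower. Itgam was among the higher there (0.43, adjusted p = 0.0391, edgeR), so its call turned by library totals (−0.35, adjusted p = 0.0335). With the block 14 of the 23 were called in WT, 13 higher and 1 lower, and 11 in NDI1, 9 higher and 2 lower, with 3 of the 4 tested neutrophil markers higher in each, where 72% of all genes were called in WT and 72.4% in NDI1. Of the 2 lower in NDI1, 1 was a conventional dendritic cell marker and 1 a macrophage marker. The part of these markers' cells in the LPS response of the members was not tested.

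For the LPS response itself, no member passed the test of a difference between genotypes. This test cannot decide for Ifnb1, which had no count in untreated BMDMs of either genotype. The background there was 0% of genes called by edgeR, with 63 genes at an unadjusted p under 0.05 and 0 genes called by DESeq2. No member had an unadjusted p under 0.05 there, nor for NDI1 against WT in untreated or in LPS-treated BMDMs, and DESeq2 called 0 members in each.

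Levels per kilobase of exon use the union of exons over all annotated transcripts. For Irf7 this union is 1 block of 3776 bases that covers its whole span. A union longer than the spliced transcript lowers the level per kilobase, so the order of genes depends in part on annotation. On this scale, Ifnb1 in WT with LPS (2.46 CPM per kb) was the lowest of the 9 members. Irf3 was next at 6.55, then Irf9 at 31.1, Tbk1 at 73.8, Ifnar2 at 101, Ifnar1 at 108, Stat2 at 125, Irf1 at 199 and Irf7 at 346 CPM per kb. With piericidin A added, Ifnb1 stood at 75.4 CPM per kb, between Tbk1 (59.6), Ifnar1 (61.5) and Ifnar2 (77.6), while Irf3 had 5.09 and Irf1 325 CPM per kb. Over the 5 WT mice with LPS, the ranges of Ifnb1, Irf3, Irf9 and Tbk1 were separate from one another. Those of Tbk1 (56.0 to 84.2 CPM per kb) and Ifnar2 (78.2 to 145) overlapped, as did those of Ifnar2, Ifnar1 and Stat2, and Irf1 and Irf7 met at 241 CPM per kb. With both agents, Ifnb1 ranged from 11.9 to 157 CPM per kb over the mice and overlapped every member but Irf3, Irf7 and Irf1.

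**Figure D2:**
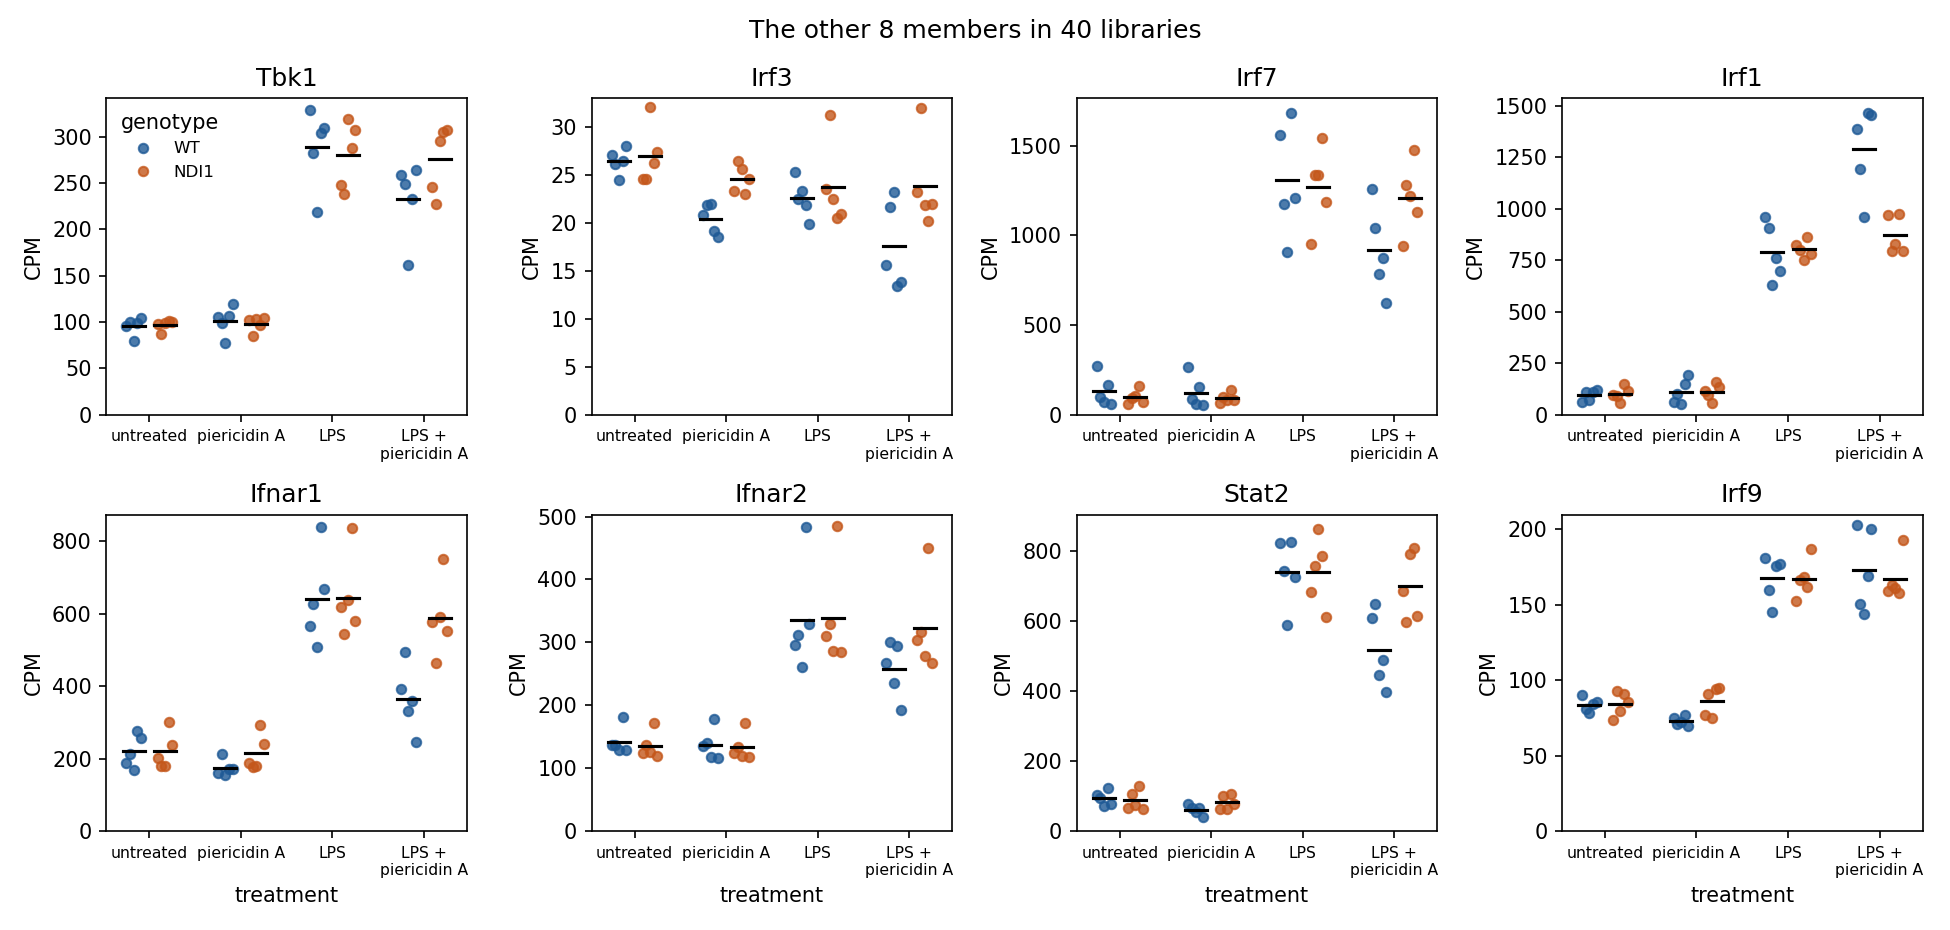
Level of Tbk1, Irf3, Irf7, Irf1, Ifnar1, Ifnar2, Stat2 and Irf9 in each of the 40 libraries, in CPM from 0 on linear axes, by treatment and genotype, with group means as bars. All but Irf3 are higher with LPS, and in Ifnar1 the WT libraries with both agents (247 to 495 CPM) lie below those with LPS alone (509 to 839 CPM).

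Under LPS, piericidin A passed the test in WT for 2 members, Ifnb1 (higher) and Ifnar1 (lower). Scaled by library totals, Irf1 was called as well (0.77). DESeq2 called Irf3, Irf1 and Stat2 beside both. The background was 16.7% of genes called, 7.81% higher and 8.92% lower (with library totals, 58.8% of calls were higher, against 46.7%), and 2 of 9 members is near that share. In NDI1 0 of 9 were called, where edgeR called 0% of genes, 127 genes and 0 members had an unadjusted p under 0.05, and DESeq2 called 0 genes. The NDI1 log2 fold changes of the 9 members lay between −0.13 and 0.12. With the mouse as a block, which compares cultures of the same animal, 8 of 9 members were called in WT (all but Irf9), against 34.5% of genes, and again 0 in NDI1.

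Tbk1 encodes the kinase that activates IRF3 and IRF7 (chr10:121546455-121586794). Its WT levels with LPS were 329, 282, 219, 303 and 309 CPM, and with both agents 258, 249, 162, 232 and 264 CPM. It was lower in 5 of 5 mice, although the groups overlap, and the log2 fold change was −0.31 ± 0.12 (adjusted p = 0.0839, and 0.000396 with the block). In NDI1 it was 280 ± 35.9 CPM with LPS and 276 ± 37.0 CPM with both (SD, n = 5).

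Irf3, the constitutive factor that starts Ifnb1 transcription (chr7:44997648-45002848), had WT levels of 25.3, 22.4, 23.3, 21.8 and 19.8 CPM with LPS in mice 449, 452, 453, 496 and 520. With both agents these were 15.5, 21.6, 23.2, 13.4 and 13.8 CPM. Mice 449, 496 and 520 had less Irf3 with both agents than any LPS library, and mice 452 and 453 were within 1 CPM of their LPS culture. The log2 fold change was −0.37 ± 0.13 (adjusted p = 0.0531, and 0.0154 with the block). In NDI1, Irf3 was 23.7 ± 4.36 CPM with LPS and 23.8 ± 4.68 CPM with both. The exons of Irf3 share 88 bases with Bcl2l12 on the other strand, and the strand setting of the counting is not given in the sources used here.

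Irf7, which amplifies interferon production (chr7:141262706-141266481), was 1558, 1174, 910, 1685 and 1207 CPM with LPS in the WT mice and 1262, 1043, 784, 874 and 622 CPM with both agents. Each mouse was lower with both agents, but the spread between mice was wide, and the log2 fold change was −0.51 ± 0.35 (adjusted p = 0.33, and 0.0223 with the block). Irf1, which lies at chr11:53770014-53778374, went the other way. Its WT levels were 959, 908, 628, 761 and 697 CPM with LPS and 1385, 1192, 957, 1467 and 1455 CPM with both, higher in 5 of 5 mice. The Irf1 groups touched, since the lowest library with both agents (957 CPM) was just under the highest with LPS (959 CPM). The log2 fold change was 0.71 ± 0.26 (adjusted p = 0.0571, and 0.00736 with the block). In NDI1, Irf1 was 803 ± 41.1 CPM with LPS and 873 ± 92.1 CPM with both.

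Ifnar1, the receptor chain that binds TYK2 (chr16:91485238-91507441), fell in WT. The levels were 566, 627, 509, 839 and 667 CPM with LPS and 393, 495, 331, 360 and 247 CPM with both agents, and the groups do not overlap. Of all tested genes, 7.88% had WT groups with and without piericidin A under LPS that do not overlap, and among the members these were Ifnb1 and Ifnar1. The log2 fold change was −0.81 ± 0.18, or 0.569-fold with an interval of 0.447 to 0.725 (adjusted p = 0.0016). It was called in all 16 alternatives, with values between −0.95 and −0.69. In NDI1, Ifnar1 was 643 ± 114 CPM with LPS and 587 ± 104 CPM with both (log2 fold change −0.13 ± 0.18), and lower in 5 of 5 mice.

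Ifnar2, the chain that binds JAK1 (chr16:91372783-91405589), was 336 ± 86.4 CPM with LPS and 258 ± 44.8 CPM with both agents in WT (SD, n = 5). It was lower in 5 of 5 mice, with a log2 fold change of −0.38 ± 0.17 (adjusted p = 0.12, and 0.000553 with the block). Exons of Ifnar2 and Gm21970 share 315 bases on the same strand. Shorter overlaps are those of Irf1 with Gm17334 (135 bases), Irf9 with Rnf31 (123 bases) and Irf7 with Phrf1 (45 bases).

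Stat2, which carries the receptor signal to the nucleus (chr10:128270576-128292849), had WT levels of 823, 745, 591, 826 and 726 CPM with LPS and 610, 651, 445, 490 and 399 CPM with both agents. It was lower in 5 of 5 mice with a log2 fold change of −0.52 ± 0.19 (adjusted p = 0.0525, and 0.00162 with the block). Irf9, the DNA-binding partner of STAT2 (chr14:55603571-55610030), was 168 ± 15.1 CPM with LPS and 173 ± 27.5 CPM with both (log2 fold change 0.05 ± 0.09, adjusted p = 0.77). The interval for Irf9 was 0.909 to 1.18-fold.

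**Figure D3:**
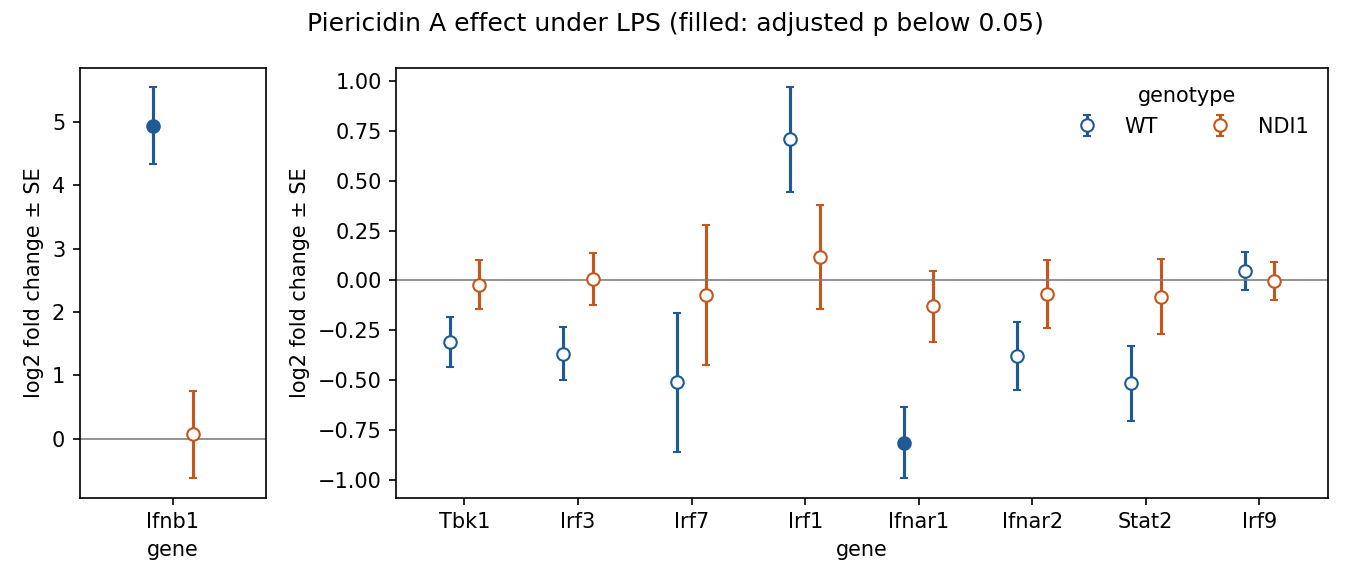
Log2 fold change of LPS with piericidin A against LPS for the 9 members in WT and NDI1, with standard errors as bars and Ifnb1 on its own axis. Filled points are those with an adjusted p below 0.05, Ifnb1 (4.94) and Ifnar1 (−0.81) in WT, and the NDI1 values lie between −0.13 and 0.12.

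**Figure D4:**
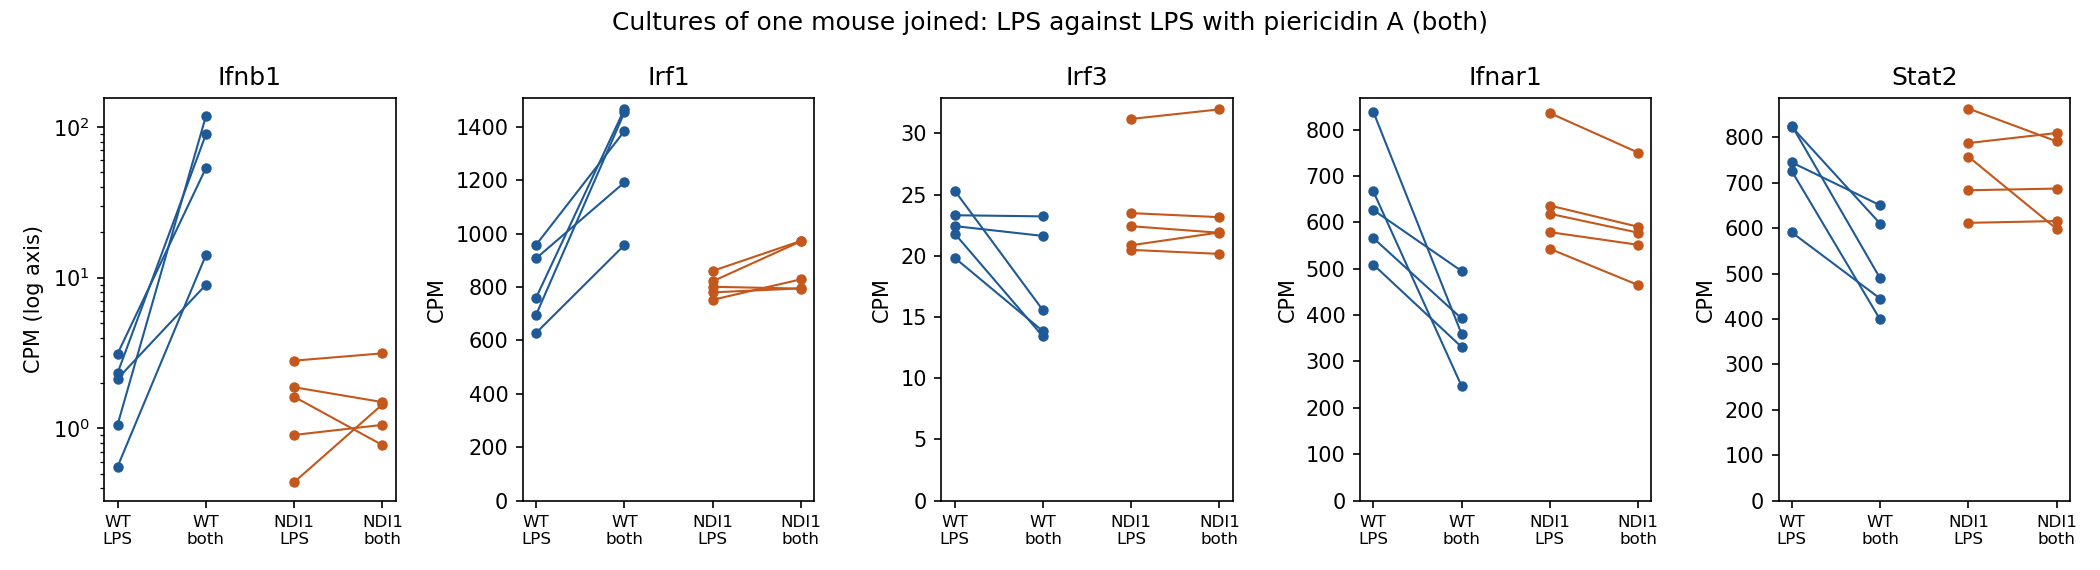
CPM of Ifnb1 (log axis), Irf1, Irf3, Ifnar1 and Stat2 with LPS and with both agents, with the 2 cultures of each mouse joined. WT lines rise for Ifnb1 and Irf1 and fall for Ifnar1 and Stat2 in 5 of 5 mice, and the Irf3 lines of mice 452 and 453 are nearly flat.

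The genotypes were then compared directly. For the difference in the piericidin A effect under LPS, Ifnb1 was the only member called, where 0.979% of genes were called. Ifnar1 differed by 0.68 ± 0.25 (NDI1 minus WT, adjusted p = 0.184). With the block, 3 members were called, Ifnb1 at −4.53, Ifnar1 at 0.68 (adjusted p = 0.0106) and Tbk1 at 0.29 (adjusted p = 0.04), against 9.51% of genes. Irf1 differed by −0.59 ± 0.37, and Irf3, Irf7, Ifnar2 and Stat2 by 0.31 to 0.44, none past the threshold with or without the block.

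Between NDI1 and WT BMDMs that had both agents, 3 members were called, where 12% of genes were. Ifnb1 was lower in NDI1 (log2 fold change −5.14 ± 0.61, adjusted p = 7.31e-06). Ifnar1 (0.68 ± 0.18, adjusted p = 0.00953) and Irf3 (0.45 ± 0.13, adjusted p = 0.0236) were higher. Of these, Ifnb1 alone had groups that do not overlap, as did 5.37% of all genes. Without WT mouse 520, Ifnb1 was the only call, with Ifnar1 at 0.57 (adjusted p = 0.0578) and Irf3 at 0.37 (adjusted p = 0.102). Irf3 was also not called without WT mouse 449 (0.41), without WT mouse 496 (0.36) or without NDI1 mouse 460 (0.32), nor by library totals. With only the libraries of those 2 groups in the fit, neither was called and Irf1 was.

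Without LPS, piericidin A passed the test in WT for Stat2 and Irf3, both lower, where 14.8% of genes were called. Neutrophil marker sums in WT mice 449, 452, 453, 496 and 520 were 17.4, 70.5, 20.8, 381 and 42.0 CPM untreated and 23.9, 82.2, 34.4, 1178 and 48.4 CPM with piericidin A. They were higher in 5 of 5 WT mice, by 1.15 to 3.09-fold and most in mouse 496, and in 3 of 5 NDI1 mice, by 0.87 to 1.54-fold over the 5. Plasmacytoid dendritic cell sums were higher in 4 mice of each genotype (0.901 to 4.45-fold in WT, 0.607 to 1.46 in NDI1). Conventional dendritic cell sums were higher in 4 WT mice (0.502 to 3.36) and 1 NDI1 mouse, B cell sums in 3 (0.103 to 9.36) and 1. Fibroblast sums were higher in 3 and 3, macrophage sums in 2 and 4, and T and NK cell sums in 2 and 1. Without the block 0 of the 23 tested markers were called in either genotype, and with it 6 were in WT, among them all 4 tested neutrophil markers, where 34.2% of all genes were called, and 0 in NDI1. The difference between genotypes with the block was called for 1 marker, Cd68, and for 8.96% of all genes. The part of these cells in the results without LPS was not tested. Stat2 was 105, 96.1, 71.9, 124 and 77.9 CPM untreated and 76.3, 66.9, 55.5, 65.9 and 40.7 CPM with piericidin A, lower in 5 of 5 mice. Its log2 fold change was −0.64 ± 0.19 (adjusted p = 0.0198), and it was not called without WT mouse 496 (−0.55, adjusted p = 0.108) or 520 (−0.58, adjusted p = 0.0701). Irf3 was 27.1, 26.1, 24.4, 26.4 and 28.0 CPM untreated and 20.7, 21.8, 22.0, 19.1 and 18.5 CPM with piericidin A. The Irf3 groups do not overlap, as in 11.4% of all tested genes, the log2 fold change was −0.37 ± 0.13 (adjusted p = 0.0461), and it was called in 7 of 16 alternatives. It was not called without NDI1 mouse 447, 461, 503 or 521, without WT mouse 449, 452, 496 or 520, or without the filter on low counts. Ifnar1 (−0.34 ± 0.18) and Irf9 (−0.20 ± 0.09) were not called, but both were with the block, when 4 members were called against 34.2% of genes.

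In NDI1, piericidin A without LPS gave 0 calls among the 9 members by edgeR and by DESeq2, with 0 members at an unadjusted p under 0.05 and fold changes between −0.13 and 0.14 on the log2 scale in the 8 members with counts. The difference between genotypes was called for 0 members by either tool, with 0 at an unadjusted p under 0.05, where 1.27% of genes were called. Ifnb1 had no count in the untreated groups or in NDI1 with piericidin A, so this test cannot decide for it. Stat2 was closest at 0.53 ± 0.27 (adjusted p = 0.459). Between NDI1 and WT with piericidin A alone, 0 members were called by edgeR and 3 had an unadjusted p under 0.05 (Irf3, Stat2 and Irf9), where 7.8% of genes were called. By library totals Stat2 and Irf9 were called higher in NDI1, while the median over all genes was 0.12 on that scale. DESeq2 called Ifnb1 there.

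The LPS effect in WT with and without piericidin A was also compared. By edgeR and by DESeq2, 0 members were called for a change in the LPS effect, where 4.75% of genes were called by edgeR. 1 member, Tbk1, had an unadjusted p under 0.05 (−0.40 ± 0.18). Untreated WT had no Ifnb1 count, so the LPS effect has no finite fold change there and the test cannot decide for Ifnb1. With the block, Tbk1 (−0.39, adjusted p = 0.00331) and Ifnar1 (−0.48, adjusted p = 0.0454) were called, against 17.4% of genes. For Ifnb1, the pooled ratio of both agents to piericidin A alone was 309, from 2143 and 12 counts.

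The other genes of the pathway were taken from a list of 59, of which 41 were tested. The 17 other type I interferon ligands of the list were all below the filter, and the highest count of any of them in a library was 2, for Ifna5 and Ifnz with piericidin A and for Ifnk in an untreated library. Ifnb1 was thus the type I interferon gene of the list counted above the floor. The counts do not show how reads that align to several related genes were treated. A low count therefore does not show that a gene was silent. With LPS in WT, 33 of the 41 rose and 4 fell (26 and 10 by library totals). Of all tested genes, 31.5% rose and 31% fell, 3738 and 3673, against 1732 and 7864 by library totals. The list's median log2 fold change was 1.67 against −0.01 for all genes. The largest rises were in Ifih1 (4.79), Tlr3 (3.89) and Zbp1 (3.63) among sensors, in Azi2 (2.58), Tank (2.56) and Ikbke (1.82) among TBK1 partners, and in Irf2, Irf5 and Irf8 (1.70, 1.67 and 1.02) among other interferon regulatory factors. Stat5a (3.45), Stat3 (2.30) and Tyk2 (1.44) led the receptor kinases and STATs, and Socs3 (7.51), Socs1 (6.64) and Isg15 (5.39) the inhibitors.

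Piericidin A under LPS called 13 of these 41 genes in WT, 7 higher and 6 lower, where 16.7% of all genes were called, 7.81% higher and 8.92% lower. The list had a median log2 fold change of −0.05 against −0.02 for all genes. Each of the 13 moved in its direction in 5 of 5 mice. With the block 22 were called, 9 higher and 13 lower, against 34.5% of all genes. By library totals the counts were 7 higher and 4 lower. In NDI1, 0 of 41 were called by edgeR or DESeq2, and 0 had an unadjusted p under 0.05. The receptor kinases and STATs had 1 lower call and none higher of 5, Tyk2 (−0.59 ± 0.15), the kinase that IFNAR1 binds. Among sensors and adaptors, Tlr3 (−0.73 ± 0.19), the receptor for double-stranded RNA, and Tlr4 (−0.55 ± 0.19), the LPS receptor, fell and Sting1 (0.51 ± 0.17), an adaptor for cytosolic DNA, rose, of 13 tested.

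In the kinase complex of ligand induction, 3 of 8 rose and 1 fell. Traf3, a ubiquitin ligase that links TRIF to TBK1, rose by 1.17 ± 0.22 on the log2 scale, from 31.2 ± 4.98 to 70.1 ± 32.6 CPM. Optn (0.59 ± 0.20), a TBK1 adaptor, and Traf6 (0.36 ± 0.12) rose, and Azi2 (−0.42 ± 0.14), another TBK1 adaptor, fell. Of 4 other interferon regulatory factors, Irf8 rose (1.16 ± 0.28), from 417 ± 168 to 931 ± 512 CPM. Among 11 inhibitors, Socs1 (1.04 ± 0.28), which blocks JAK kinases, and Irf2bp2 (0.88 ± 0.21) rose, while the phosphatase gene Ptpn6 (−0.78 ± 0.17) and Trim21 (−0.45 ± 0.15) fell. The NDI1 log2 fold changes of all 41 genes lay between −0.28 (Ticam2) and 0.32 (Socs1). For the difference between genotypes, 0 of the 41 were called by edgeR, against 0.979% of all genes, 7 had an unadjusted p under 0.05, and DESeq2 called 2, Traf3 and Irf2bp2, of 231 genes in all. With the block, 8 were called, against 9.51% of all genes, among them Traf3 (−1.11, adjusted p = 0.00416).

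**Figure D5:**
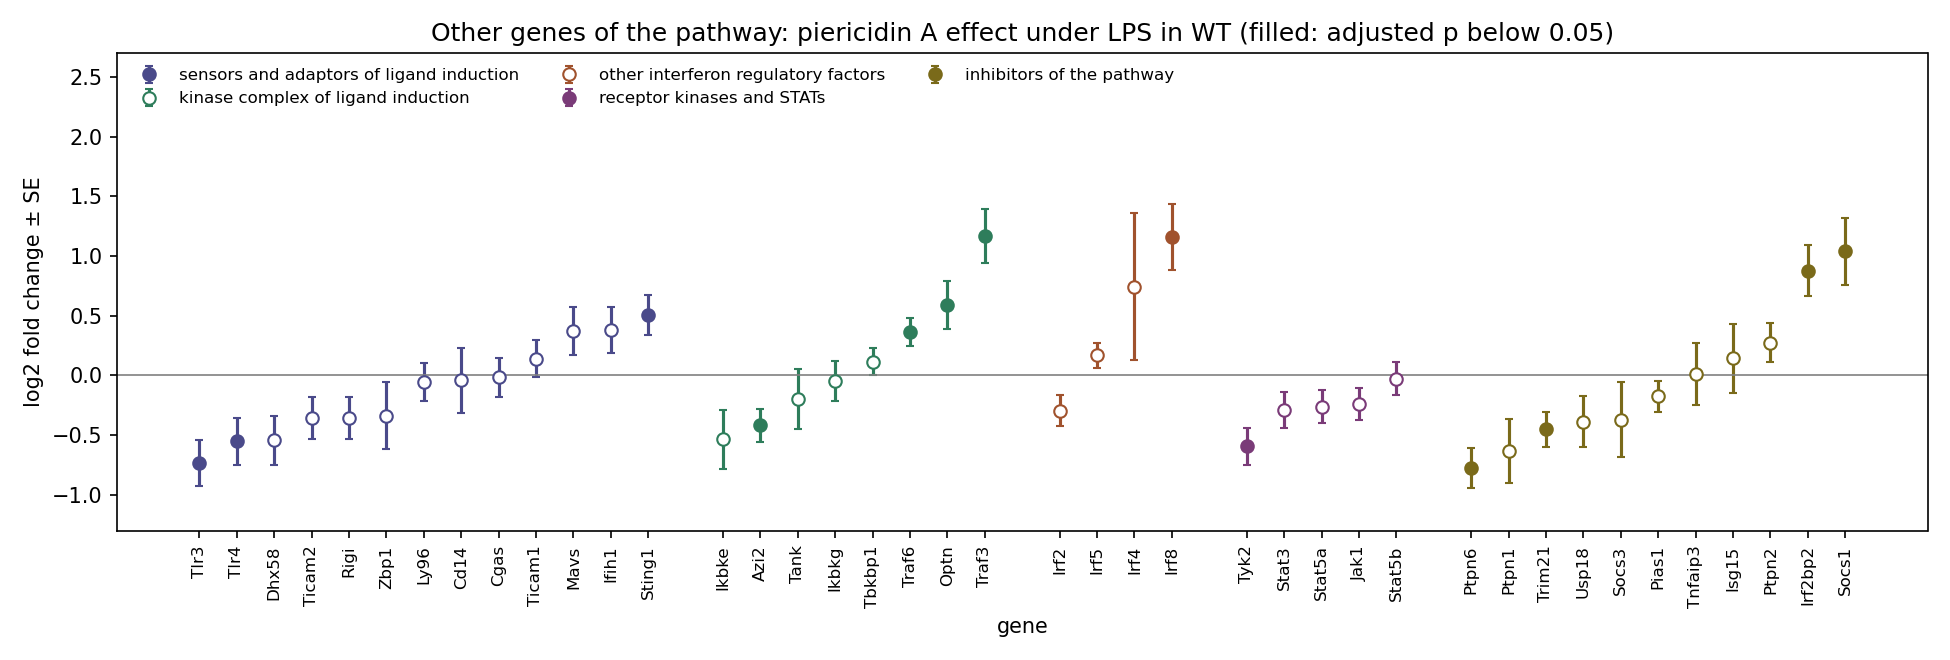
Log2 fold change of LPS with piericidin A against LPS in WT for the 41 tested genes of the pathway list, ordered by size within each role, with standard errors as bars. The 13 filled points (adjusted p below 0.05) are 7 above and 6 below 0, from Ptpn6 (−0.78) to Traf3 (1.17).

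Without LPS, piericidin A called 15 of the 41 in WT, 10 higher and 5 lower (9 and 10 by library totals). Of all tested genes, 14.8% were called, 7.79% higher and 7.05% lower, and the higher share of the calls went from 52.5% to 22.7% by library totals. With the block 23 were called, 11 higher and 12 lower, against 34.2% of all genes. In NDI1 it called 0 by edgeR or DESeq2, with 0 at an unadjusted p under 0.05. The difference between genotypes was called for 1 of the 41, Trim21 (0.86 ± 0.21, adjusted p = 0.0298), against 1.27% of all genes, and 13 had an unadjusted p under 0.05. DESeq2 called 3 for it, Optn, Tnfaip3 and Trim21, of 294 genes in all, and the block 11, against 8.96% of all genes. Of the 11 inhibitors, 5 rose and 3 fell without LPS. In the 15 calls over all roles, Socs1 (1.59), Tnfaip3 (1.43) and Optn (1.24) were among the higher, and Trim21 (−0.91) and Tlr3 (−0.81) among the lower, named after their values were seen. Of these, Optn is listed with the TBK1 partners and Tlr3 with the sensors. Between NDI1 and WT with both agents, 8 were called, 2 higher and 6 lower in NDI1 (1 and 7 by library totals), against 12% of all genes, 5.86% higher and 6.13% lower. By library totals the higher share of all calls there went from 48.8% to 39.3%. Among the 8, Traf3 was −1.17 and Irf8 −1.08 and Ptpn6 0.63.

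The genes whose pattern is most like that of Ifnb1 were found by the Pearson correlation of log2 CPM over the 20 libraries with LPS, among the 9848 genes whose mean log2 CPM there reached 1. They were Arl4c (r = 0.957), Csrnp1 (0.956), Bach1 (0.951), Ccrl2 (0.949) and Tmem37 (0.949). In WT, Arl4c had a mean of 13.4 CPM with LPS and 191 CPM with both agents, and in NDI1 of 12.5 and 15.4 CPM. Bach1 means were 207 and 553 CPM in WT, and 189 and 212 CPM in NDI1. The 20 points are 4 groups of 5, with Ifnb1 high in 1 of the groups, and each mouse gives 2 of them. Over the 8 group means, the nearest were Hspa4l (0.994), Tbc1d9b (0.993), Papss2 (0.991), Polr2g (0.99) and Pcna (0.99). Among the members, Irf1 ran with Ifnb1 over the 20 libraries (r = 0.885), Irf9 less so (0.457), and the other 6 ran against it, Irf3 (−0.775), Ifnar1 (−0.763), Stat2 (−0.697), Irf7 (−0.485), Ifnar2 (−0.448) and Tbk1 (−0.234).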

How the data were processed

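RNA-seq of BMDMs from 5 WT and 5 NDI1 mice under 4 treatments gave 40 libraries, mapped to genotype, treatment and mouse by their labels. The authors prepared polyA-selected libraries, used Trimmomatic for trimming and STAR for alignment to mm10, and deposited the raw HTSeq counts of reads in exons, without normalization. The annotation release and strand setting are not given in the sources used here, so overlapping genes are less certain. The table has a further column of reads assigned to no library, which was not used, and its length column exceeds the span of the gene in 1982 rows, so levels per kilobase use GENCODE M21 exon lengths.

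The members, gene lists and tests were chosen with earlier results of these data known. Named pathway genes are, by role, up to 4 called with the largest effect of piericidin A under LPS in WT and up to 3 for LPS in WT. 1 gene of the pathway list is not reported here and is left out of its counts. Genes with a symbol were 42462 of 43430 rows. The test was edgeR 4.0.16 (R 4.3.3): filterByExpr over 8 groups (11853 genes), TMM factors, 1 mean per group over all 40 libraries, glmQLFit and glmQLFTest, and Benjamini-Hochberg adjustment with a threshold of 0.05. The standard error is the log2 fold change over the square root of F. No fitted fold change is given for Ifnb1 against a group at 0, where the floor is 3 counts over the group. The study's methods name DESeq2 and no block, so DESeq2 1.42.0 and the mouse as a replicate block are alternatives, beside RLE factors, no filter, only the compared libraries, and each mouse left out. Library totals in place of TMM factors were added after the data were seen. The 4 libraries of a mouse come from the same animal, by the number their labels share: deviations from group means had a mean correlation of 0.453 over 60 same-mouse pairs (lowest 0.0995) and −0.107 over 240 pairs of different mice. Replicate libraries differed by more than counting noise (chi-square per degree of freedom 9.63 to 79 over 80 pairs). The block could not be fitted between genotypes within a treatment, since each mouse has 1 genotype. The procedure was tested on simulated counts that held no effect of the mouse. That test therefore cannot decide how the fit with or without the block behaves on libraries paired by mouse. Library totals of 6950748 to 13552070 make 3 counts the practical floor. The Poisson interval and the floors cover counting error only, since these reads carry no molecular identifiers, and the intervals of fold changes come from the edgeR standard errors, which hold the spread between mice. Promoter sequences are from RefSeq (GRCm38.p6), which had 11 windows for the 9 members.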

Additional observations from a re-analysis of the deposited data

Results flagged for a closer look

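The piericidin A effect on Ifnb1 under LPS differed between genotypes, by −4.87 on the log2 scale for NDI1 minus WT in the test of the difference itself. In 5 of 69 member and group combinations of 5 libraries, 1 library stood apart from the other 4, with a gap to its nearest neighbour above Dixon's 95% critical value of 0.71 of the whole range. Chance alone gives about 1 in 20. Tbk1 was lowest in WT mouse 453 with both agents, at 162 CPM, and in untreated NDI1 mouse 460, at 86.8 CPM. Ifnar2 was highest in untreated WT mouse 496, at 181 CPM, and in NDI1 mouse 503 with LPS, at 485 CPM. Irf9 was highest in NDI1 mouse 521 with both agents, at 193 CPM. With both agents, mice 496 and 503 also had the highest marker sums in their genotypes for every list but that of T and NK cells. For neutrophils these were 2082 and 594 CPM, and for plasmacytoid dendritic cells 24.7 and 19.9 CPM. The part of this in Ifnar2 was not tested.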

How the results depend on the processing

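Counts of members called changed as follows. With the replicate block, piericidin A under LPS in WT had 8 calls in place of 2, its difference between genotypes 3 in place of 1, piericidin A without LPS in WT 4 in place of 2, and the LPS effect changed by piericidin A 2 in place of 0. The block changed no other call of a member. DESeq2 called 5 for piericidin A under LPS in WT, 3 in place of 2 without LPS in WT and 1 for NDI1 against WT with piericidin A. Without the filter on low counts, piericidin A without LPS in WT had 1 call. Library totals in place of TMM factors gave 4 there, 9 in place of 8 for LPS in each genotype, 3 in place of 2 for piericidin A under LPS in WT, 2 in place of 3 for NDI1 against WT with both agents, 1 for the LPS effect changed by piericidin A in WT and 2 for NDI1 against WT with piericidin A. With only the compared libraries, LPS in NDI1 had 7 in place of 8, since Ifnb1 was below the filter and not tested, and LPS in WT had 8 with Irf3 in place of Ifnb1 for the same reason. There piericidin A under LPS in WT 3 in place of 2 and NDI1 against WT with both agents 2 in place of 3 (Irf1 gained, Irf3 and Ifnar1 lost). Leaving out each mouse in turn gave 8 to 9 calls for LPS in NDI1, 2 to 4 calls for piericidin A under LPS in WT, 0 to 1 for the difference between genotypes (0 without WT mouse 520), 0 to 2 for piericidin A without LPS in WT and 1 to 3 for NDI1 against WT with both agents. The causes were not tested. Over all genes, piericidin A under LPS in WT had 1983 calls, 891 with only the compared libraries, 4090 with the block and 841 to 2023 when a mouse was left out. Its difference between genotypes had 116, and then 49, 1127 and 27 to 255, with 231 by DESeq2 and 72 without the filter. Piericidin A without LPS in WT had 1759, 4049 with the block and 788 to 1800 when a mouse was left out, and its difference 150, 1062 and 63 to 200, with 294 by DESeq2. The LPS effect changed by piericidin A in WT had 563, 354 with only the compared libraries, 2066 with the block and 163 to 596 when a mouse was left out. NDI1 against WT had 1421 with both agents, 398 with only the compared libraries and 746 to 1792 when a mouse was left out, and 924 with piericidin A, 477, 587 to 1115, and 1390 by library totals. Of 1966 values of single members under alternatives, 33 became calls and 20 lost the call. The sign changed in 100, none of them a call, and in 98 of these the value was within 1 standard error of 0 both before and after, which was counted as no direction. The other 2 were Irf7 for NDI1 against WT with piericidin A, 0.0721 without WT mouse 449 (range over the mice left out −0.614 to 0.0721), and Ifnar2 for NDI1 against WT with LPS, −0.151 without NDI1 mouse 503 (range −0.151 to 0.175). The per-mouse difference of Ifnb1 stayed between 3.75 and 4.89. Depth limits Ifnb1 outside WT with both agents, where no library had more than 31 counts.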
